A study of Rattus norvegicus with 36 samples.

Results

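The genes described here mark the inhibitory interneurons of the hippocampus. The list was fixed by name and holds 10 genes, of which 9 have a row among the 20603 in the deposited table. Npy, which encodes neuropeptide Y, has none and is not analysed here. The 9 genes fall into 3 that most inhibitory neurons share (Gad1, Gad2, Slc32a1) and 6 that mark subtypes or parts of the population (Sst, Pvalb, Vip, Cck, Reln, Lhx6). All 9 passed the filter on low values, a median of at least 10 normalized counts over the libraries, as did 15837 genes in all.

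RNA came from frozen hippocampus of female rats, sequenced in 36 libraries. By the labels the animals fall into 6 groups of 6: regular cyclers at 6 months (Reg6m) and 9 months (Reg9m), irregular cyclers at 9 months (Irreg9m), acyclic animals at 9 months (Acyc9m) and at 16 months (Acyc16m), and RegOVX10m, whose ovaries were removed at 9 months and whose tissue was taken at 10 months. The columns of the table carry only the tissue and a number, hippo1 to hippo36, so no library could be placed in a group, and age, cycle status and surgery were not compared. The libraries are therefore described as 1 set. Any difference between the 6 groups is part of the spread given below and cannot be told apart from differences between single libraries. Nothing in the labels names a batch. The labels do not say outright that each library is a separate animal, so p-values take the libraries as units and rest on the spread between them. They take no account of the 6 groups, so differences between groups can enter the correlations and their p-values.

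Inhibitory interneurons release GABA. Gad1 and Gad2 encode the enzymes that make it from glutamate (GAD67 and GAD65), and Slc32a1 encodes the transporter that loads it into synaptic vesicles. Within this population, somatostatin (Sst) marks dendrite-targeting cells such as those of stratum oriens and the hilus. Parvalbumin (Pvalb), a calcium buffer, marks fast-spiking basket and axo-axonic cells, and vasoactive intestinal peptide (Vip) marks cells that mainly inhibit other interneurons. Cholecystokinin (Cck) marks a class of basket cells but is also made by pyramidal neurons. Reelin (Reln), a secreted matrix protein, is made in the adult by several interneuron types and, in the hippocampal region, by other neurons as well. Lhx6 is a transcription factor of interneurons born in the medial ganglionic eminence, which give rise to the Sst and Pvalb classes. In bulk tissue, fewer cells of a type and less RNA per cell cannot be told apart.

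The members with a printed start-site sequence are 3 of those that went together across libraries, Slc32a1, Sst and Gad2. Each sequence is the 250 bases before the annotated gene start, from RefSeq on GRCr8, plus strand, 5′ to 3′. They are shown because for these measured genes the whole stretch lay outside the annotated gene. For Gad1, Reln, Lhx6, Vip and Pvalb it did not, so theirs are not shown. Their base composition differs, with 73.6% G and C for Slc32a1, 44.4% for Sst and 62.0% for Gad2. Capitals mark the letters TAATTA.
Slc32a1, chr3:167686995-167687244: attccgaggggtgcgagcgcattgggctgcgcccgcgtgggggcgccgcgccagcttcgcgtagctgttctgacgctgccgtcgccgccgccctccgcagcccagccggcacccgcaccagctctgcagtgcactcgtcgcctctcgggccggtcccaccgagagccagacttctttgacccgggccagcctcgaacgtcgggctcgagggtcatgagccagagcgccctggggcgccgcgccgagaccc
Sst, chr11:90461296-90461545: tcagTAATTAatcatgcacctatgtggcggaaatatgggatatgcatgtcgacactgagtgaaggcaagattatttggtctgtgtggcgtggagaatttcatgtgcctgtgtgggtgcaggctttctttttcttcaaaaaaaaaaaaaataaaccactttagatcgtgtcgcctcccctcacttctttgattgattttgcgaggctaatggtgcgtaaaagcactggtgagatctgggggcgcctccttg
Gad2, chr17:89671468-89671717: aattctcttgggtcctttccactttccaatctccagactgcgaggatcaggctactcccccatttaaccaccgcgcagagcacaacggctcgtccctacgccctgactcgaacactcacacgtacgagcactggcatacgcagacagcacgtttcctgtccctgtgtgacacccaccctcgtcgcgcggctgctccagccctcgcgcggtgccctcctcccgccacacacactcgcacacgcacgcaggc

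For 8 of the 9 measured members a window of 300 bases around a start site was at hand (Cck has none), and 4 motifs were searched on both strands. The homeodomain core TAATTA, its own reverse complement, stood in the window of Sst and in 5.35% of 27457 windows of the same length. The cAMP response element TGACGTCA, also its own reverse complement, stood in the window of Sst alone among these members, and in 1.91% of all windows. It begins at base 3 of the annotated gene and is shown here in capitals within 30 bases, chr11:90461537-90461566, plus strand.
Sst, cAMP response element: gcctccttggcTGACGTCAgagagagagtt
The letters TATAAA stood in the windows of Vip and Gad1 and in 14.3% of all windows, and CAGCTG stood in that of Lhx6 and in 15.1%. These are matches of letters in 1 window per gene. The other members had none of the 4 motifs there.

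Before the values, 1 library has to be set apart. The gene-wise ranks of hippo17 had a median Spearman correlation of 0.99334 with the other libraries, below the limit of 0.99479 (the first quartile minus 3 interquartile ranges). The next lowest, hippo16, stood at 0.9951, just inside it. Correlations are therefore given over all 36 libraries and over the 35 without hippo17. Values are normalized counts, in which 1 unit was worth about 1 read, and the approximate depth was 32.9 M to 40.3 M reads a library. Levels are not compared between genes, because a count rises with transcript length. The marker lists of pyramidal and granule neurons, astrocytes, oligodendrocytes and microglia had no gene at 0 in any library.

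The shared GABA genes all had 1 library well under the rest. Gad1 ranged from 4045 to 8636 normalized counts with a median of 7271 (quartiles 6671 and 7591, n = 36). Its lowest value was that of hippo17, and the next lowest was 6075, in hippo11. Gad2 ranged from 3518 to 7574 with a median of 6409, and again hippo17 was lowest, followed by hippo12 at 5184. Slc32a1 ranged from 1087 in hippo17 to 2663 in hippo2, with a median of 2167 and a second-lowest value of 1733 in hippo19. So all 3 genes shared the same lowest library. Without hippo17 the highest library exceeded the lowest 1.42-fold for Gad1, 1.46-fold for Gad2 and 1.54-fold for Slc32a1.

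The subtype markers differed more among themselves. Sst ran from 694 in hippo17 to 2263 in hippo2 (median 1842), a 3.26-fold span that narrowed to 1.70-fold without hippo17. Reln ran from 1027 in hippo17 to 3183 in hippo2 (median 2389), 3.10-fold with that library and 1.87-fold without it. Lhx6, the least abundant in counts, ran from 71.2 in hippo17 to 203 in hippo2 (median 128). These 3 genes had the same lowest and the same highest library. Vip ran from 318 in hippo17 to 575 in hippo13 (median 469), and its second-lowest value, 351 in hippo10, was close to the lowest.

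Pvalb and Cck had other extremes. Pvalb ran from 959 in hippo16 to 1466 in hippo4 (median 1286), and hippo17, at 1269, sat near its middle. Cck ran from 3255 in hippo16 to 5322 in hippo5 (median 4520), with hippo17 second lowest at 3764. Of the 9 members, 7 were thus lowest in hippo17 and 2 in hippo16, and 5 were highest in hippo2.

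**Figure D1:**
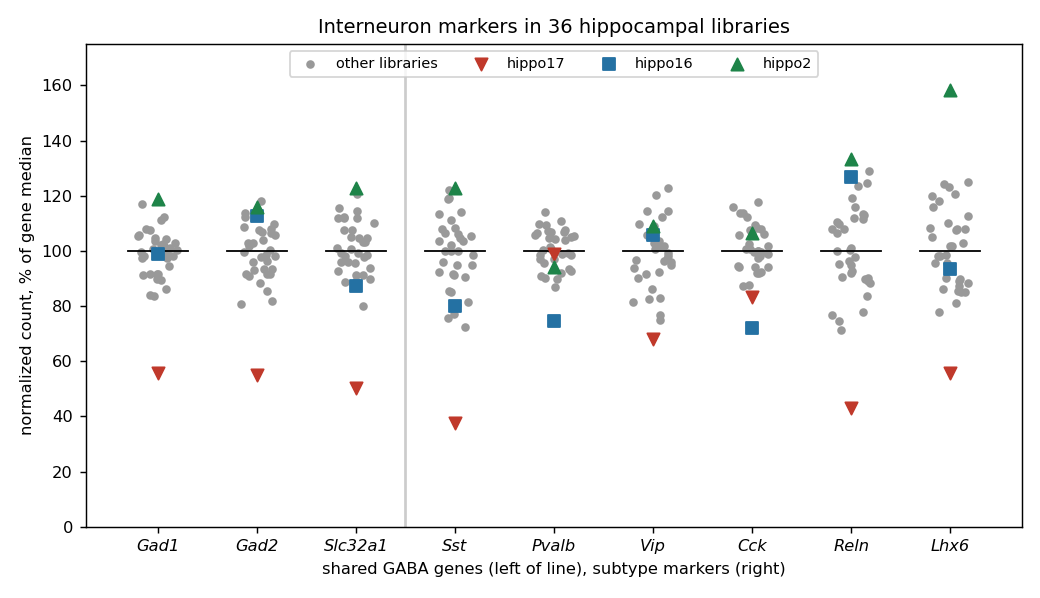
Normalized counts of each member (y axis, percent of that gene's median over 36 libraries) for every library (points; the black line is the median). Library hippo17 lies lowest for 7 of the 9 genes and near the median for Pvalb, hippo16 lies lowest for Pvalb and Cck, and hippo2 lies highest for 5 genes.

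Spread was measured as the SD of log2(normalized count + 1) over libraries. The shared genes had SDs of 0.19 (Gad1), 0.20 (Gad2) and 0.22 (Slc32a1), which fell to between 0.12 and 0.14 without hippo17. The subtype markers covered 0.12 (Pvalb) to 0.31 (Reln) with all libraries and 0.12 (Pvalb) to 0.23 (Reln) without hippo17. Sst had SDs of 0.30 and 0.20, Lhx6 of 0.26 and 0.22, Vip of 0.19 and 0.17 and Cck of 0.14 and 0.14. Counting error alone would give an SD of about 0.017 for Gad1, 0.018 for Gad2, 0.021 for Cck, 0.030 for Reln, 0.031 for Slc32a1, 0.035 for Sst, 0.040 for Pvalb, 0.067 for Vip and 0.13 for Lhx6. The spread of every member was above its counting error, by the least for Lhx6 in proportion. Among genes whose median lay within 0.5 log2 units of their own, Sst was more variable than 97.7%, Reln than 98.6%, Gad2 than 95.5% and Gad1 than 92.2%, all without hippo17. The corresponding shares were 93.9% for Cck, 91.9% for Slc32a1, 82.0% for Pvalb, 86.004% for Vip and 73.1% for Lhx6.

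In hippo17 the loss was uneven over the members. Relative to the median of the other 35 libraries, Sst stood at 37.7%, Reln at 42.9%, Slc32a1 at 49.8%, Gad2 at 54.6%, Lhx6 at 54.7% and Gad1 at 55.5%. Vip stood at 67.4%, Cck at 83.2% and Pvalb at 98.4%. The 7 members that were lowest there compare with 11.1% of the genes tested, and the same 7 lay at least 0.5 log2 units under the median of the others, as did 3.52% of the genes tested. Many other interneuron genes, though not all, were low with them. Of 15 interneuron transcription factors tested, 10 were lowest in hippo17, among them Sp9 at 30.9%, Nr2f2 at 41.6% and Dlx6 at 44.5% of the median of the others. Of 29 other interneuron genes, 16 were lowest there, including Tac1 (substance P precursor) at 42.6%, Htr3a (a serotonin-gated channel of caudal interneurons) at 46.7% and Cnr1 (the CB1 cannabinoid receptor) at 55.7%. In the same library 1 of the 15 transcription factors and 3 of these 29 genes were highest. The summed level of the transcription factors was 95.0% of the median of the others, and that of the other interneuron genes 75.7%. The summed level of 9 genes that handle GABA and chloride, at 42928 normalized counts, was below that of all other libraries (44775 to 51530). Of these 9 genes, 3 were lowest in hippo17 and 2 highest.

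The same library was high for some other cell types and low for others. All 10 oligodendrocyte genes were highest in hippo17, with their summed level at 367527 normalized counts against 133805 to 239303 in the others, and Mbp, a main myelin protein, at 210.5% of the median. Of 9 endothelial and mural genes, 7 were highest there, against 12% of the genes tested. The summed astrocyte genes, at 148623, were above the others (111563 to 143661), with 2 of 10 highest there. The summed thalamus and habenula genes, at 4411, were also above the others (3552 to 4119), with 3 of the 9 tested highest. The summed oligodendrocyte precursor genes, at 11589, were just above the others (9189 to 11496), with 2 of 6 highest and 1 lowest. So were the summed cytosolic ribosomal protein genes, a list added later, at 358348 (others 281332 to 343029), with 40 of the 60 tested highest. The summed pyramidal and granule neuron genes, at 210695, stayed inside the range of the others (209642 to 261279), near its lower end. The summed general neuron genes, at 312752, were below the others (317649 to 362312), and 5 of the 10 were lowest there. The summed microglia genes, at 7937, were also below the others (7994 to 11170), with 3 of 10 genes lowest there. The part of these lists in the low interneuron markers was not tested.

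Correlation was then used to ask which markers went together across libraries. With 9 genes there are 36 pairs: 3 between shared genes, 18 between a shared gene and a subtype marker and 15 between subtype markers. A pair was called where limma, fitted across all genes with 1 member as covariate, gave an adjusted p below 0.05 in both of its fits (Benjamini-Hochberg over 15836 genes). Over all 36 libraries 24 pairs were called, all of them positive: 3 of 3, 13 of 18 and 8 of 15. The median Pearson r was 0.79 between shared genes, 0.71 between shared genes and subtype markers and 0.44 between subtype markers. Without hippo17 15 pairs were called, each of them also called with it: 2 of 3, 9 of 18 and 4 of 15, with median r of 0.54, 0.52 and 0.33. The members of the 3 classes overlap, and the difference between classes was not tested.

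**Figure D2:**
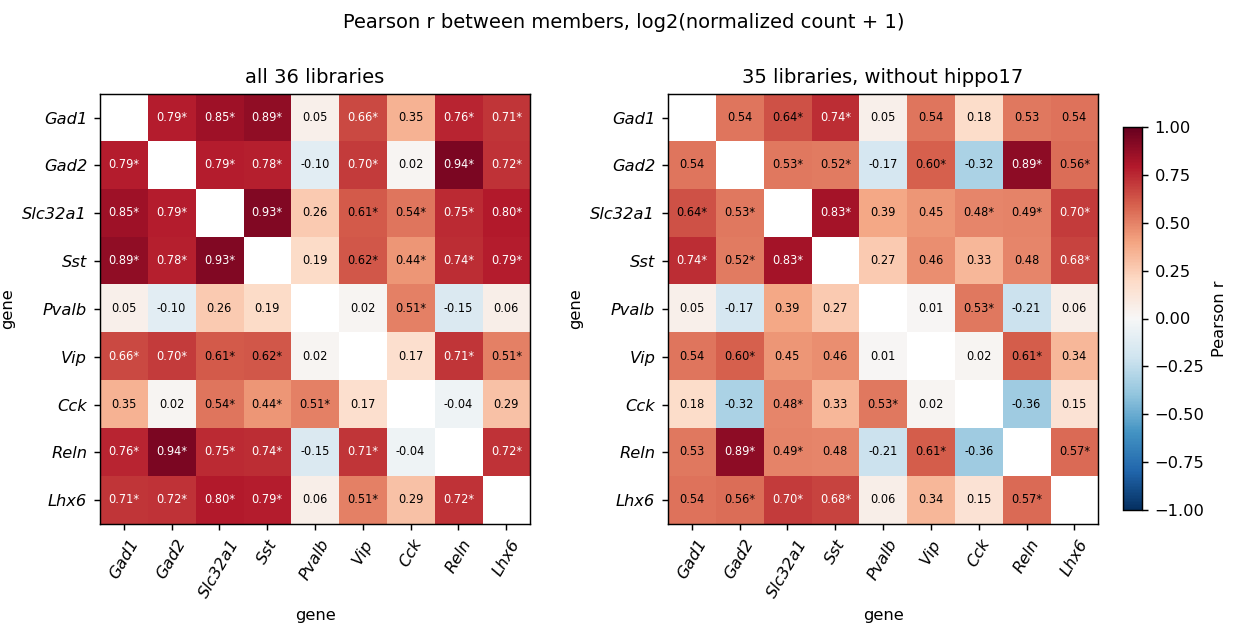
Pearson r between members on log2(normalized count + 1), over all 36 libraries (left) and the 35 without hippo17 (right); an asterisk marks a pair called in both of its fits. The 7 rows other than Pvalb and Cck form a positive block that is paler on the right, and the row of Pvalb is pale on both sides except with Cck and, on the right, Slc32a1.

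The share of members called has to be read against all genes. Here, and for the gene lists below, a gene counts as called where it passed in the single fit with the named member as covariate. A pair that missed in its other fit, such as Gad1 with Gad2 without hippo17, is therefore counted for the member whose fit it passed. Over all libraries, 6 of the 8 other members were called with Gad1, against 6.22% of the genes tested with a positive slope. For Gad2 it was 6 of 8 against 9.42%, for Slc32a1 7 of 8 against 11.5% and for Sst 7 of 8 against 8.22%. For Reln it was 6 of 8 against 10.9%, for Lhx6 6 of 8 against 7.82% and for Vip 6 of 8 against 2.04%. Cck had 3 of 8 against 13.8%, and Pvalb had 1 of 8 against 5.03%. Pvalb and Cck were nearest to the background.

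Without hippo17 the calls with Gad1 fell from 6 to 2 (Slc32a1 and Sst), against 0.0884% of the genes tested. Gad2 and Reln still had 6 of 8 each, against 8.20% and 11.5%, and Slc32a1 also had 6 of 8, against 4.17%. Lhx6 had 5 of 8 against 2.81%, Sst 4 of 8 against 0.840% and Vip 2 of 8 against 0.170%. Cck had 2 of 8 against 13.3% and Pvalb 1 of 8 against 6.64%. No member was called negative with another in either set. For negative slopes the share of all genes was 5.87% for Gad1, 7.77% for Gad2, 9.55% for Slc32a1, 7.36% for Sst, 4.07% for Pvalb, 1.40% for Vip, 10.9% for Cck, 8.68% for Reln and 6.12% for Lhx6 over all libraries. Without hippo17 it was 0% for Gad1, 7.72% for Gad2, 3.0% for Slc32a1, 0.871% for Sst, 4.87% for Pvalb, 0.0568% for Vip, 10.9% for Cck, 10.8% for Reln and 1.66% for Lhx6. These are the shares against which the list counts below are read.

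The closest pair was Gad2 with Reln. Their Pearson r was 0.94 and Spearman's rho 0.88 over 36 libraries (each permutation p = 1e-05, the smallest that 100000 permutations can give). Without hippo17 r was 0.89 and rho 0.87 (permutation p = 1e-05 for each), and leaving out hippo12 and hippo19, then farthest from the median of Gad2, gave r = 0.87. Libraries rich in 1 of these RNAs were rich in the other, with hippo17 and without it.

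Slc32a1 and Sst came next. Their r was 0.93 with all libraries and 0.83 without hippo17, and rho was 0.87 and 0.86 (permutation p = 1e-05 for all 4). Sst was also close to Gad1 without hippo17 (r = 0.74, rho = 0.70, permutation p = 1e-05 and 2e-05). Lhx6, which marks the lineage that includes Sst cells, had r = 0.68 with Sst and 0.70 with Slc32a1 in those 35 libraries, and both pairs were called.

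Gad1 and Gad2, which make the same product, were less close than either pair above. Their r was 0.79 over all libraries (rho = 0.58) and 0.54 without hippo17 (rho = 0.54, permutation p = 0.00106 for r). In limma the pair passed with Gad2 as covariate without hippo17 (adjusted p = 0.00768) and missed with Gad1 as covariate (adjusted p = 0.112), so it was not called there. Whether r of Gad1 with Gad2 differs from r of Gad2 with Reln was not tested.

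Vip went with Gad2 and Reln. Without hippo17 its r was 0.60 with Gad2 (rho = 0.51) and 0.61 with Reln (rho = 0.48), and both pairs were called. With Slc32a1 and Sst its r was 0.45 and 0.46, and neither pair was called there. All 21 pairs of the 7 members other than Pvalb and Cck had a positive r in both sets, from 0.51 to 0.94 over 36 libraries and from 0.34 to 0.89 over 35. That group of 7 was put together after the values were seen.

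Pvalb was not called with any of these 7. Without hippo17 its r was 0.05 with Gad1, -0.17 with Gad2, 0.27 with Sst, 0.06 with Lhx6, 0.01 with Vip and -0.21 with Reln. Its r with Slc32a1 was 0.39 (rho = 0.34), with a permutation p of 0.0199 for r and a larger limma adjusted p of 0.117, so that pair was not called. The pair called was Pvalb with Cck, at r = 0.51 over all libraries and 0.53 without hippo17. Its rho was 0.27 and 0.26, and leaving out hippo15 and hippo16, the libraries farthest from the median of Pvalb, gave r = 0.15 in the 35. That relation therefore rests on those 2 libraries.

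Cck went with Slc32a1 (r = 0.54 over all libraries, 0.48 without hippo17, called in both). With Gad2 its r was 0.02 over all libraries and -0.32 without hippo17, and with Reln -0.04 and -0.36. Neither was called, with larger adjusted p-values from limma of 0.17 and 0.0904 without hippo17. In those 35 libraries Cck thus had r values of opposite sign with the vesicle transporter and with the enzyme GAD65. The difference between these 2 r values was not tested. Over 13 settings of the processing, r of Gad2 with Cck ranged from -0.315 to 0.249, so its sign depended on the setting.

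**Figure D3:**
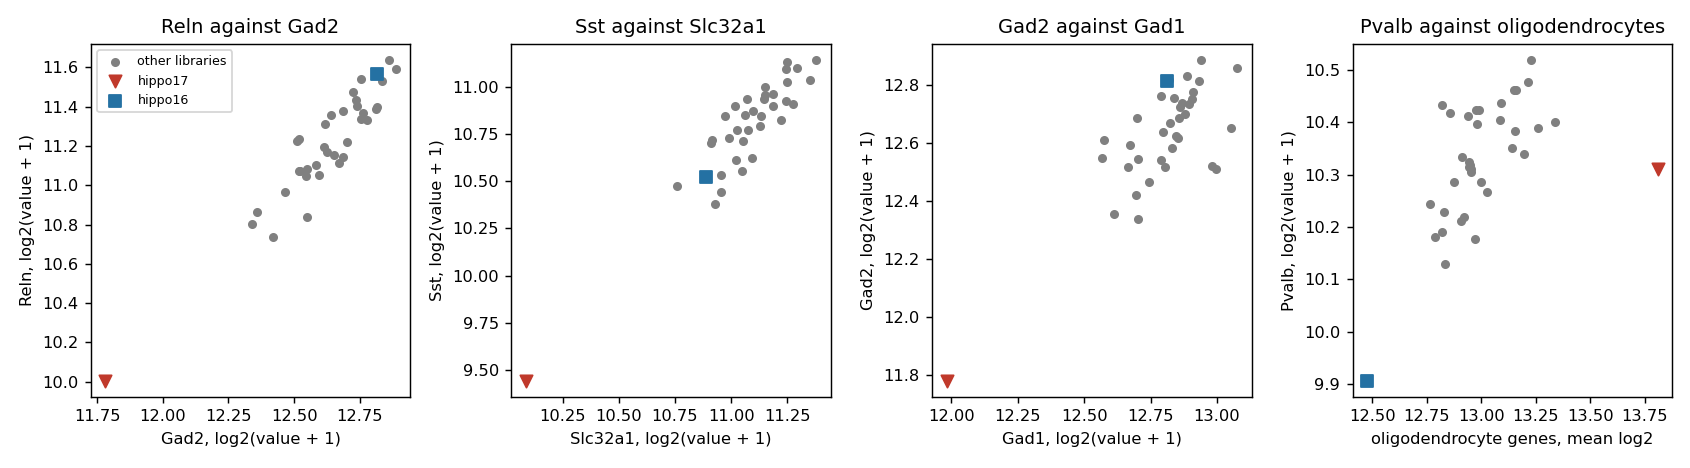
Each point is 1 library; axes are log2(normalized count + 1), and the last panel has the mean of the 10 oligodendrocyte genes on its x axis. Reln against Gad2 and Sst against Slc32a1 line up over the whole range, Gad2 against Gad1 is looser, and Pvalb rises with the oligodendrocyte genes except in hippo17.

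Other genes of interneurons were compared with the members by lists. Of 29 further interneuron genes tested, 19 were called positive and 2 negative with Gad2 over all libraries, with a median r of 0.54 against -0.01 over all genes. Without hippo17 14 were positive and none negative, with a median r of 0.43. Cnr1 (r = 0.83 with Gad2 without hippo17), the Kv3 channel gene Kcnc2 (0.82), Ndnf of neurogliaform cells (0.72) and Grin3a (0.61) were among them. Lamp5, on the same list and also on the neocortex list, went the other way. It was called negative with Gad2 over all libraries (r = -0.49) and was not called without hippo17 (-0.20). With Reln 15 were called without hippo17, with Slc32a1 11, with Lhx6 10 and with Sst 6. With Gad1 the count fell from 18 to 2, Nxph1 and Tac1, while the share of all genes called positive fell from 6.22% to 0.0884%. With Pvalb 2 were called in either set, Nkx6-2 and Cplx1.

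Interneuron transcription factors were called less often once hippo17 was left out. Over all libraries 10 of 15 were called positive with Slc32a1, and without hippo17 6, among them Dlx6 (r = 0.59), Dlx2 (0.58), Dlx5 (0.55), Sp9 (0.53) and Dlx1 (0.49). The Dlx genes belong to the programme of embryonic GABA neurons. With Gad2 the count fell from 10 to 3, with Reln from 8 to 4, with Lhx6 from 9 to 3, with Sst from 10 to 0 and with Gad1 from 10 to 0. The share of all genes called positive went from 6.22% to 0.0884% with Gad1, from 8.22% to 0.84% with Sst and from 7.82% to 2.81% with Lhx6. With Slc32a1 that share went from 11.5% to 4.17%, with Gad2 from 9.42% to 8.2% and with Reln from 10.9% to 11.5%. The difference between members was not tested. Prox1, which is on this list but is also a granule cell gene, was called negative with Pvalb (r = -0.68) and with Cck (-0.64) without hippo17.

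Genes that handle GABA were called less often. Of 9 tested, 4 were called positive and 2 negative with Slc32a1 over all libraries, and 1 and 1 without hippo17. The potassium-chloride cotransporter Slc12a5 was called positive without hippo17 with Reln (r = 0.60), Slc32a1 (0.50) and Gad2 (0.44). Slc6a13, a GABA transporter of vessels and meninges, was called negative there with Slc32a1 (-0.48) and Cck (-0.49). For receptors of the marker peptides and of reelin, 13 were tested. Without hippo17 the neuropeptide Y receptor Npy2r was called with Gad2 (0.47) and Lhx6 (0.51), and the reelin receptor Vldlr with Gad2 (0.54) and Reln (0.64), while Sstr1 to Sstr4 were not called with Sst.

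Genes most like each member, by Pearson r over 35 libraries without hippo17, were named by rule. For Gad1 they were Nxph1 (0.71), Dner (0.71) and Ap1s2 (0.69), and for Sst Nxph1 (0.79), Ndrg4 (0.77) and Nnmt (0.74). Lhx6 was closest to Grin3a (0.80), an unnamed transcript and Timp2 (0.77). Slc32a1 was closest to Aars (0.85), Bcat1 (0.82) and Kif3c (0.80), none of them on an interneuron list. For Gad2 the first 2 were Cnr1 and Kcnc2, and the third was an unnamed transcript. Vip was closest to Spon1 (0.71), Lrrn3 (0.69) and Serpini1 (0.69). Reln was closest to Tp53bp1 (0.83), RGD1310429 (0.82) and Ikbkap (0.82), and Cck to Sult4a1 (0.88), Fkbp1b (0.88) and Itm2c (0.88).

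At the other end, Rps15 had r = -0.85 with Reln, and Rpsa had r = -0.81 with Gad2. Both encode ribosomal proteins of the small subunit. A list of the cytosolic ribosomal protein genes was added after these values were seen. Of 60 tested, 50 were called negative with Gad2 and 52 with Reln without hippo17, against 7.72% and 10.8% of the genes tested with a negative slope. With Slc32a1 it was 20 and with Lhx6 22, and with Gad1, Sst and Vip it was 0. With Cck 8 were called positive. The first principal component of all genes, which held 8.39% of the variance in these 35 libraries, had r = 0.76 with Reln (rho = 0.72, permutation p = 1e-05 for each), 0.63 with Gad2 (rho = 0.61, permutation p = 3e-05 and 0.00026) and 0.084 with Slc32a1 (rho = 0.062, permutation p = 0.631 and 0.723). With Lhx6 its r was 0.46 (rho = 0.41, permutation p = 0.00572 and 0.016). With Cck it was -0.58 (rho = -0.52, permutation p = 0.00024 and 0.00154), and with Pvalb -0.47 (rho = -0.37, permutation p = 0.00378 and 0.0286). The part of this component and of the ribosomal genes in the pairs was not tested beyond the settings given in the closing section.

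Pvalb went with myelin. All 10 oligodendrocyte genes were called positive with it over all libraries (median r = 0.52, against 5.03% of the genes tested) and without hippo17 (median r = 0.67, against 6.64%). In the 35 libraries Mbp had r = 0.72, Cnp 0.72, Mag 0.72, Mobp 0.70 and Ermn 0.57. Against the mean log2 level of the list, Pvalb had r = 0.74 and rho = 0.63 (permutation p = 1e-05 and 0.00011), and r = 0.63 without the 2 libraries farthest from the median. Among the genes closest to Pvalb were Nkx6-2 (0.81), a transcription factor of oligodendrocytes that also stands on the interneuron list, S1pr5 (0.77), a receptor of mature oligodendrocytes, and Ppp1r14a (0.77), while Myt1 was lowest (-0.81). Of the 6 genes of the oligodendrocyte precursor list, 3 were called positive and 0 negative with Pvalb there, Sox10 (r = 0.66), Olig1 (0.61) and Olig2 (0.50), which mature oligodendrocytes also express, and the median r of the list was 0.10. Library hippo16, lowest for Pvalb, was also lowest for all 10 oligodendrocyte genes, and their part in the level of Pvalb was not tested. Without both hippo16 and hippo17 the median r of the 10 genes was 0.55, from 0.46 to 0.62, and 2 were called. Leaving out hippo16 alone left 0 of the 10 called.

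With most other members the oligodendrocyte genes had a negative median r over all libraries. Over all libraries 10 of 10 were called negative with Gad2 and with Reln, 9 with Gad1 and 7 with Slc32a1. Without hippo17 those counts were 2, 3, 0 and 0, and with Cck 2 were called positive, Cnp (r = 0.40) and Mal (0.49). Microglia genes were called negative without hippo17 with Reln in 5 of 10 cases (Aif1, C1qa, C1qb, C1qc, Trem2) and with Gad2 in 4. Of 10 astrocyte genes, 3 were called negative with Slc32a1 there, Slc1a3 (r = -0.68), Aqp4 (-0.65) and Gja1 (-0.52). The part of these cell types in the levels of the members was not tested. Endothelial and mural genes were called negative with Cck in 6 of 9 cases without hippo17 (median r = -0.45), with Slc32a1 and Sst in 3 each, and with Pvalb in 0.

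**Figure D4:**
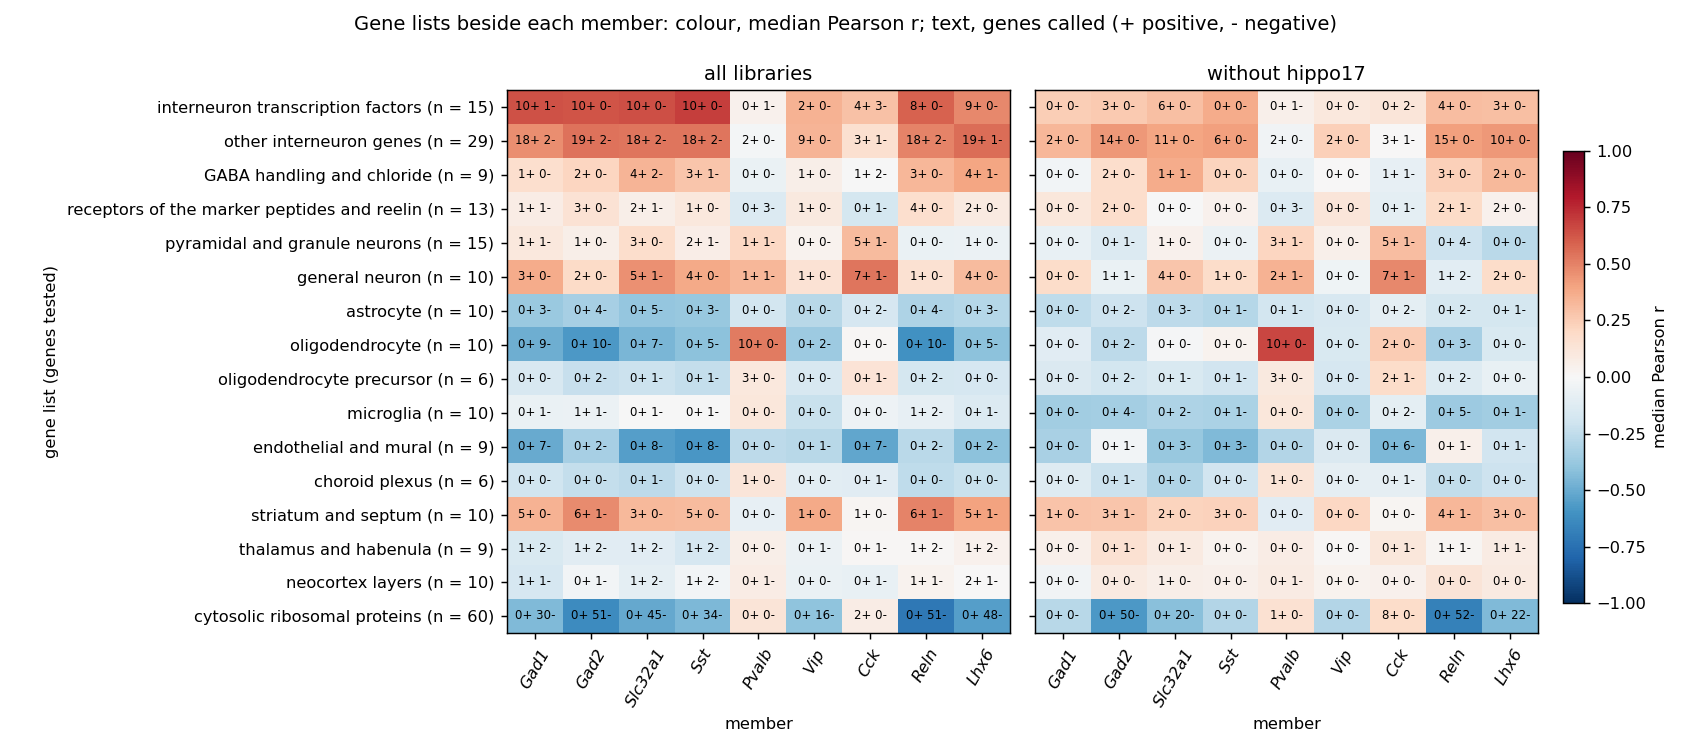
Median Pearson r (colour) of each gene list with each member, and the number of genes called positive and negative (text), over all 36 libraries (left) and without hippo17 (right). The interneuron lists are red and the oligodendrocyte list blue for most members on the left and paler on the right, while the oligodendrocyte list with Pvalb is red on both sides.

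Pyramidal and granule neuron genes were called positive most often with Cck; a difference between members was not tested. Without hippo17 5 of 15 were called positive and 1 negative with Cck (median r = 0.31), as were 7 and 1 of 10 general neuron genes (median r = 0.48), against 13.3% of the genes tested with a positive slope. Gad1, Sst, Vip and Lhx6 had 0 of these 15 called in either direction. Of the 10 general neuron genes, 4 were called positive with Slc32a1 without hippo17, against 4.17% of the genes tested. They were Tubb3 (r = 0.69), Syp (0.62), Eno2 (0.51) and Syt1 (0.49). With Lhx6 2 were called positive, against 2.81%. With Reln 4 pyramidal and granule neuron genes and 2 general neuron genes were called negative, against 10.8%, while Syt1 was called positive (0.73). Of 10 striatum and septum genes, 4 were called positive with Reln without hippo17, against 11.5% of the genes tested, and 3 with Sst, against 0.840%: Tac1 (r = 0.68), Drd2 (0.64) and Rxrg (0.55). The same 3 genes were called positive with Lhx6, against 2.81%. Over all libraries 5 were called positive with Gad1, Sst and Lhx6 each, and 6 with Gad2 and Reln. Ppp1r1b of the same list was called negative with Gad2 and Reln in both sets (r = -0.59 and -0.56 without hippo17). With Lhx6 it was called negative over all libraries (r = -0.49). Tac1 is also on the list of interneuron genes. Of 9 thalamus and habenula genes, 10 neocortex genes and 6 choroid plexus genes, at most 1 was called positive with any marker without hippo17. Tcf7l2 of the thalamus list was called negative there with Lhx6 (r = -0.56), Slc32a1 (-0.54), Reln (-0.52) and Gad2 (-0.47), and Rora with Cck (-0.41). The neocortex gene Rorb was called negative with Pvalb (-0.58). The choroid plexus genes Kcne2 and Slc4a5 were called negative with Cck (-0.48) and Gad2 (-0.44). The part of tissue from neighbouring regions in the levels of the members was not tested.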

How the data were processed

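The deposited table holds 36 columns of normalized counts per gene, a signal scaled between libraries by the authors; per the submitters' processing notes kallisto 0.43 and DESeq2 were used, with no roles given. Which transcriptome served as the index is not stated in the labels. Column names gave the tissue only, so all libraries were treated as 1 set and n counts libraries. Dividing each column by the value of 1 read (0.873 to 1.07 units) made 61.3% to 88.0% of values under 60 whole within 0.05, so the counts were not recovered and no count test was run. Values were taken as log2(value + 1) for genes with a median of at least 10. limma 3.58.1 (R 4.3.3, eBayes with trend) was fitted with each member as covariate, after the script was tested on simulated data, and p-values were adjusted over 15836 genes. Permutation p-values are two-sided, raw and for 36 pairs in each of 2 sets of libraries. Members and lists were chosen with earlier results of these data known. Named genes are the members, the 3 highest and 2 lowest r for each, and genes of the lists. A library stood apart where its median Spearman correlation with the others was below the first quartile minus 3 interquartile ranges. No age, cycle or surgery group was compared. Some genes of the lists are counted but not reported by name here.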

Additional observations from a re-analysis of the deposited data

How the results depend on the processing

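The count of 24 called pairs was 23 or 24 under other pseudocounts (0.5 and 10), filters and scalings, and with the first principal component or the neuron list as covariate. Rescaling by median ratios changed nothing, since the deposited values were already scaled that way, and no symbol had 2 rows to choose between. The count was 12 on normal scores, 15 without hippo17, and, in settings chosen after seeing the data, 14 without hippo16 and hippo17, 14 without hippo17 with the oligodendrocyte list as covariate and 12 without hippo17 with the first principal component as covariate. Leaving out 1 library at a time gave 15 (without hippo17) to 24 pairs. The median r between subtype markers was 0.231 without hippo16 and hippo17, and that of shared with subtype was 0.520 without hippo17 with the first component as covariate. The SD of log2 without hippo17 was 0.123 for Gad1, 0.141 for Gad2, 0.143 for Slc32a1, 0.203 for Sst, 0.232 for Reln and 0.219 for Lhx6. Without hippo16 as well it was 0.125, 0.140, 0.140, 0.2, 0.228 and 0.222 for these, 0.099 for Pvalb and 0.112 for Cck.

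Only pairs that were not called turned sign. Cck with Reln gave 0.009 with equal totals and 0.206 and 0.163 with the first component as covariate, with and without hippo17. Gad2 with Pvalb gave 0.310 and 0.192 there, and Pvalb with Reln 0.333 and 0.259; with the oligodendrocyte list as covariate and without hippo17 they gave 0.108 and 0.094. Pvalb with Vip gave -0.048 with the neuron list as covariate. Gad2 with Cck gave -0.150 on normal scores, -0.315 without hippo17, -0.243 without hippo16 and hippo17 and -0.245 with the oligodendrocyte list as covariate. With single libraries left out, Gad2 with Cck ranged from -0.315 to 0.136, Pvalb with Vip from -0.037 to 0.105 and Cck with Reln from -0.356 to 0.088. The cause of these changes was not tested. No paired analysis was possible because the columns carry no replicate number of a group.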
